A study of Mus musculus with 80 samples.

Results

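The genes described here are 33 mouse genes of the synaptic vesicle and of neurotransmission, out of 21938 protein-coding genes, and the measurement is where ChIP-seq libraries titled as RXR in liver had peaks over them. RXR, the retinoid X receptor, binds DNA as the partner of PPARγ and of other nuclear receptors, and pioglitazone (Pio) is a drug ligand of PPARγ. The 33 genes were chosen by name, and on these same peaks: for each gene and each group the livers with a peak overlapping an exon or intron were counted, and KO, Pio-treated WT and untreated WT livers were compared. The choice also used the highest fold enrichment per library. These counts and values are therefore described without a test where KO, Pio-treated WT and untreated WT livers are compared.

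Livers came from 8 groups of 5 male mice on the C57BL6/J strain, 5 months of age. WT mice were wildtype C57BL6/J. KO mice lacked PPARγ in the liver, because floxed PPARγ was deleted by an albumin-driven Cre that acts in hepatocytes, so other cells of the liver could still carry the gene. Neither the loxP sites nor the Cre were stated for the WT mice, and peak lists give no level of the PPARγ transcript, so the deletion was not checked here. For 12 weeks mice of each genotype were fed a control diet (Control), the control diet with Pio (Pio), a high fat diet (HFD) or the high fat diet with Pio (HFD-Pio). "Treated" below means Pio or HFD-Pio (10 WT livers), "untreated" means Control or HFD (10 WT livers), and KO means all 4 KO groups (20 livers). Each of the 40 ChIP libraries was compared with the input library of its own liver when peaks were called.

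The genotypes were not processed alike. The KO lists were called at a q-value cutoff of 0.05 from 0.628 to 1.06 M tags (M for mega) left after duplicates were dropped, and the WT lists at a p-value cutoff of 0.001 from 2.04 to 4.26 M tags, so that genotype, depth and cutoff cannot be told apart. An antibody is missing from the labels of 15 of the 20 KO libraries (Pio, HFD and HFD-Pio), which carry RXR in their titles. KO peaks lay mostly over exons, and of 17 neuron markers a median of 16 had an exonic peak per KO liver. Of 16 hepatocyte markers 13 had no exonic peak in any KO liver and 15 had none in any treated WT liver, as described at the end. Whether the libraries labelled KO are RXR ChIP of liver could not be settled from these files, and every KO value below carries that limit. In 6 of the 10 treated WT libraries the fragment length was estimated at 45 to 48 bp, against 169 to 292 bp in the other WT libraries. KO Control 4 and KO HFD 5 had the shortest KO lists, with 7630 and 8311 peaks against 14728 to 30437 in the other KO livers.

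A synaptic vesicle is loaded with transmitter by a membrane transporter, docks at the active zone of a nerve terminal, and fuses with the plasma membrane when calcium enters. Fusion is carried out by SNARE proteins, with vesicle VAMP2 pairing with SNAP25 and syntaxin on the target membrane, while synaptotagmin senses calcium and complexins hold or release the complex. NSF with its SNAP adaptors then takes the complex apart, and dynamin, amphiphysin and synaptojanin retrieve the membrane. Most of these genes are known for expression in neurons and endocrine cells, whereas hepatocytes traffic their vesicles with related, widely expressed family members.

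The stretches below show the reference bases around the median summit of the most recurrent peak site of 3 SNARE genes and regulators. The separate place that carried the treated WT peaks of Snap25 is also shown. Each run has 29 bases of the mouse reference (GRCm38, the mm10 build) on the strand of the gene, and the capital marks the median summit. Overlapping peaks of different livers were joined into a site, so the summit of a single liver can lie elsewhere in that site.
Vamp2, last exon, 20 of 20 KO livers, chr11:69091217-69091245: attagcatatcattTgcatacgctgtctg
Cplx2, last exon, 20 of 20 KO livers, chr13:54382764-54382792: tggaaggatgctgtGtaccacacatgcat
Snap25, last exon, 20 of 20 KO livers, chr2:136781797-136781825: gacaagaaaacacaCaacagcaacaataa
Snap25, intron, 7 of 10 treated WT livers, chr2:136744213-136744241: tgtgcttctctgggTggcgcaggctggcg
The first 3 lie in transcribed, spliced sequence of the gene. The last lies in an intron of Snap25, inside the exon of another annotated feature that is described further on.

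In KO livers 29.45 ± 3.56 of the 33 synaptic genes had a peak (mean ± SD, n = 20, from 19 to 33), against 7.10 ± 5.02 in treated WT (n = 10, from 1 to 17) and 3.10 ± 3.54 in untreated WT (n = 10, from 0 to 12). No KO liver reached down to the highest WT liver, but the genes were chosen on these counts. Among all protein-coding genes a mean of 27.9% had a peak in a KO liver (13.4% to 34.2%). The mean was 15.8% in a treated WT liver (3.71% to 32.9%) and 4.13% in an untreated WT liver (0.962% to 13.9%). Over all genes, single livers of the genotypes thus overlapped. The share of synaptic genes with a peak was above the share of all genes in 20 of 20 KO livers and in 8 of 10 livers of either WT class. Without KO Control 4 and KO HFD 5, the livers with the fewest synaptic genes (19 and 22), the KO mean was 30.4 ± 1.85 (n = 18). In KO Control, the KO group with a named antibody, it was 27.6 ± 5.55 (n = 5). Of the 71 gene and liver pairs with a peak in treated WT, 60 came from the 6 libraries with short fragments, and the other 4 treated WT livers had 2.75 ± 1.71 synaptic genes with a peak.

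**Figure D1:**
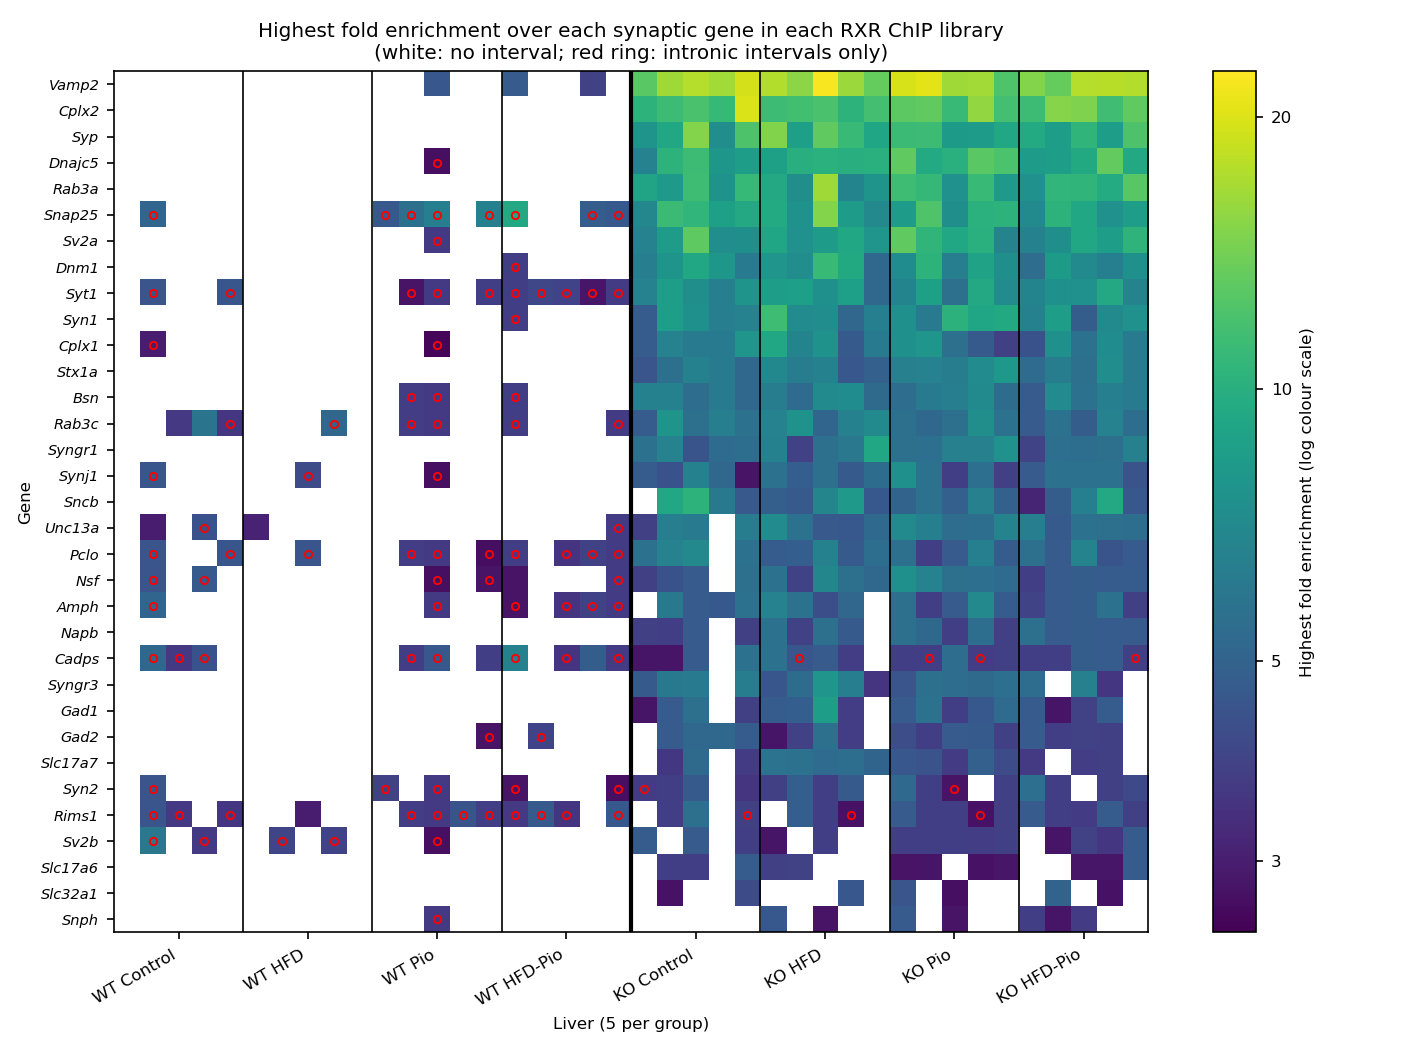
Highest fold enrichment over each of the 33 synaptic genes (rows, most KO livers at the top) in each of the 40 ChIP libraries (columns, 5 livers per group), on a log colour scale, with white for no peak and a red ring where all peaks of the gene were intronic. The KO side of the map is nearly full and nearly free of rings, with 16 genes filled in all 20 livers, while in WT livers most filled cells carry a ring.

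By group, 31 of the 33 genes had a peak in at least 3 of 5 livers in KO Control (24.3% of all protein-coding genes passed that count), 29 in KO HFD (25.7%), 31 in KO Pio (29%) and 32 in KO HFD-Pio (27.6%). In WT the same count was 3 genes in WT Control (2.21% of all genes), 0 in WT HFD (0.515%), 5 in WT Pio (12.7%) and 6 in WT HFD-Pio (10%). With peaks over an exon alone, the KO groups stayed at 30, 28, 31 and 32 genes in the same order (22%, 23.6%, 26.9% and 25% of all genes), and no synaptic gene reached 3 of 5 livers in any WT group. The background for exonic peaks was 0.0593% of all genes in WT Control, 0.0547% in WT HFD, 6.55% in WT Pio and 4% in WT HFD-Pio, so the treated WT livers did hold recurrent exonic peaks elsewhere.

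Set against the WT group of the same diet, the genes with an exonic peak in 5 of 5 KO livers and in 0 of 5 WT livers numbered 15 for Control (9.3% of all genes), 26 for Pio (9.93%), 21 for HFD (11%) and 21 for HFD-Pio (9.12%). With at least 1 liver as the count, 21 of the 33 genes had a peak in treated WT (51% of all genes) and 3 an exonic one (25%), and 13 had a peak in untreated WT (24%) and 3 an exonic one (3.3%). In treated WT the share of synaptic genes was thus above the background for peaks of any kind and below it for exonic peaks. The synaptic genes were also longer, with a median of 47.3 kb against 17.4 kb for all protein-coding genes, and most of the WT peaks were intronic. The part of gene length in these shares was not tested.

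The place of the peaks within the genes differed between the genotypes. Of 2841 peaks over the synaptic genes in KO livers, 2552 overlapped an exon (89.8%, against 87.7% of the peaks over all protein-coding genes). Of 146 in treated WT, 8 did (5.48%, against 46.0% over all genes), and of 51 in untreated WT, 5 did (9.80%, against 8.13%). Of the 26 synaptic genes with an exonic peak in at least 16 of 20 KO livers (16.4% of all genes), 24 had none in the 10 treated WT livers (8.18% of all genes passed both counts). That is 92.3% of the 26, against 49.9% of the 3595 genes of any kind with such a KO count. The choice of genes compared KO with treated WT on these peaks, so this contrast is a description and not separate support. Of the 33 synaptic genes 63.6% had a peak of any kind in at least 1 treated WT liver, against 51% of all genes. The 12 without one had none in untreated WT either. The median length of these 12 was 13.7 kb against 75.2 kb for the 21 with a WT peak.

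**Figure D2:**
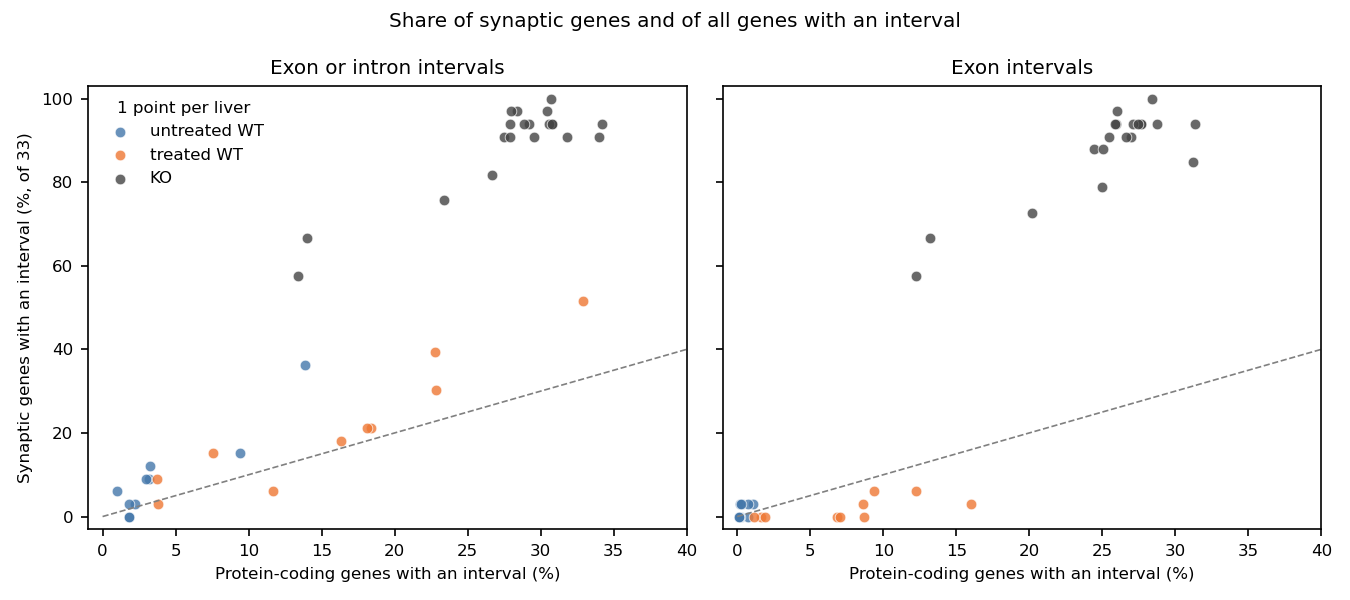
Share of the 33 synaptic genes with a peak (vertical axis, %) against the share of all protein-coding genes with a peak (horizontal axis, %), 1 point per liver, for peaks over exons or introns (left) and over exons (right), with the dashed line where both are equal. All 20 KO livers lie above the line in both panels, and in the right panel the 10 treated WT livers lie below it, with at most 2 of 33 genes.

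The 4 genes of fusion and calcium sensing had a peak in every KO liver, with medians from 6.31 to 16.6. Vamp2, the vesicle SNARE (chr11:69088490-69092384), had the highest median of the 33 genes. It had an exonic peak in 20 of 20 KO livers, with a highest fold enrichment over input from 12.3 through a median of 16.6 to 22.1. Its highest pileup was 13 to 25 tags. It was also the synaptic gene with the most exonic peaks in treated WT, where 3 of 10 livers had one, at 4.56 in WT Pio 3, 4.69 in WT HFD-Pio 1 and 3.81 in WT HFD-Pio 4, all below the lowest KO liver. These 3 livers belonged to the 6 libraries with short fragments, and no untreated WT liver had a Vamp2 peak.

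Snap25, the SNARE of the plasma membrane (chr2:136713453-136782428), had a highest fold enrichment of 6.94, 11.2, 10.6, 8.74 and 9.44 in the 5 KO Control livers. It had 9.59, 7.68, 15.02, 8.41 and 7.01 in KO HFD. It had 8.45, 12.3, 7.49, 10.2 and 10.3 in KO Pio, and 7.18, 10.4, 9.22, 7.60 and 8.55 in KO HFD-Pio. The 4 KO groups overlapped, and each KO liver had an exonic peak. All 8 exons of its representative transcript were overlapped in at least 1 KO liver, and the last exon in 20. Syt1, the calcium sensor of fast release (chr10:108497650-109010982), was exonic in 20 of 20 KO livers at 5.26 to 9.44, and Stx1a, a syntaxin of the plasma membrane, in 20 of 20 with a median of 6.31.

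The regulators and chaperones of the SNARE complex followed closely. Cplx2, a complexin (chr13:54371349-54383917), ran from 10.4 through a median of 11.7 to 19.8, the second highest median of the 33 genes, with no peak in any WT liver. Its relative Cplx1 was exonic in 20 of 20 KO livers with a median of 6.18. Dnajc5, which encodes a cysteine-string chaperone of the vesicle, had a median of 9.96. Nsf, the ATPase that recycles SNAREs, had an exonic peak in 19 of 20 KO livers (median 5.26). Napb, its neuronal adaptor, had one in 18 and Sncb, a synuclein, in 19.

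Among the vesicle membrane proteins, Syp (synaptophysin, median 9.44) and Sv2a (median 8.50) were exonic in 20 of 20 KO livers, as was Syngr1, a synaptogyrin (median 5.63). Syngr3 had an exonic peak in 17 and Sv2b in 14. Of the synapsins, which tether vesicles, Syn1 was exonic in 20 of 20 (median 7.30) and Syn2 in 14 of 20. The vesicle GTPases Rab3a (median 9.55) and Rab3c (median 5.66) were both exonic in 20 of 20. For endocytosis, Dnm1, the neuronal dynamin, reached a median of 7.51 in 20 livers, Synj1 5.34 in 20 livers and Amph 4.76 in 18 livers.

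The active zone and the transmitter genes were weaker. Bsn (bassoon), a large scaffold of the active zone, was exonic in 20 of 20 KO livers with a median of 6.17. Pclo (piccolo) and Unc13a, a priming factor, were each exonic in 19, Cadps in 14 and Rims1 in 13. The 5 genes that make or load transmitter had a peak in 7 to 17 KO livers and none of them in all 20. Gad1 and Gad2, which synthesize GABA, were exonic in 17 each, the glutamate transporters Slc17a7 in 16 and Slc17a6 in 12, and the GABA transporter Slc32a1 in 7. Snph, which anchors axonal mitochondria, also reached 7, and these 2 counts were the lowest of the 33. Together 16 of the 33 genes were exonic in all 20 KO livers, against 7.83% of all protein-coding genes (8.43% for exons or introns), and each of the 33 had a peak in at least 1 KO liver (57.7% of all genes).

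In KO livers the highest peak of a synaptic gene was also taller, by the median, than that of all genes with a peak. The median of the highest fold enrichment was 5.68 over 589 gene and liver pairs, against 4.69 over all protein-coding genes with a peak, and the median of the synaptic genes was the higher in 20 of 20 KO livers. In treated WT it was 3.73 against 3.75, and in untreated WT 4.47 against 4.26. The medians within single WT livers were mostly equal. Taken peak by peak in KO livers, the median fold enrichment was 4.46 over the synaptic genes and 4.20 over all protein-coding genes. The highest fold enrichment was part of the choice of genes, so these differences are a description and were not tested.

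Along the genes, KO peaks lay mostly over long exons, in the synaptic genes as in others. The representative transcripts of the 33 genes hold 447 exons, of which 259 were overlapped by a peak in at least 1 KO liver, 60 in at least 10 and 14 in all 20. Of the 37 exons longer than 1000 bp, 34 were overlapped in at least 10 KO livers (91.9%), but of the 150 exons of 100 bp or less only 1 was (0.667%). Among genes with an exonic peak in at least 16 KO livers and more than 1 exon, these shares were 96.8% and 0.870% for the synaptic genes. For all such genes they were 88.8% and 4.68%. The last exon was overlapped in at least 10 KO livers for 29 of 33 genes and the first exon for 1, Rab3a. Among genes with an exonic peak in at least 16 KO livers, the last exon reached 10 livers in 25 of 26 synaptic genes (96.2%) and in 86.4% of all such genes. The first exon did in 3.85% and 8.78%. No synaptic gene had a peak within 500 bp of the annotated gene start in 10 or more KO livers, and 6.73% of those 3519 genes did. Exon 2 of Sv2a, of 969 bp, was the exon other than a last exon with a peak in every KO liver. Pclo was an exception of another kind, as its last exon of 4714 bp was overlapped in 6 KO livers while its exon 5, of 5059 bp, was overlapped in 17.

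Of 3135 KO summits inside the 33 genes, 2607 fell in exons of the representative transcript. Of those, 58.2% fell in the 3′ UTR, 39.9% in coding sequence and 1.99% in the 5′ UTR, where these parts make up 46.4%, 48.4% and 5.19% of the transcripts. For all protein-coding genes the summits split as 40.5%, 57.4% and 2.03%. Over the spliced transcripts the summits were spread from end to end, with 6.79% in the first of 10 equal parts and 10.4% in the last. Exons of other annotated genes shared 70 of the 2841 KO peaks (2.46%), among them 30 peaks of Syp over Gm14703. Without all such peaks each of the 33 genes kept its number of KO livers.

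**Figure D3:**
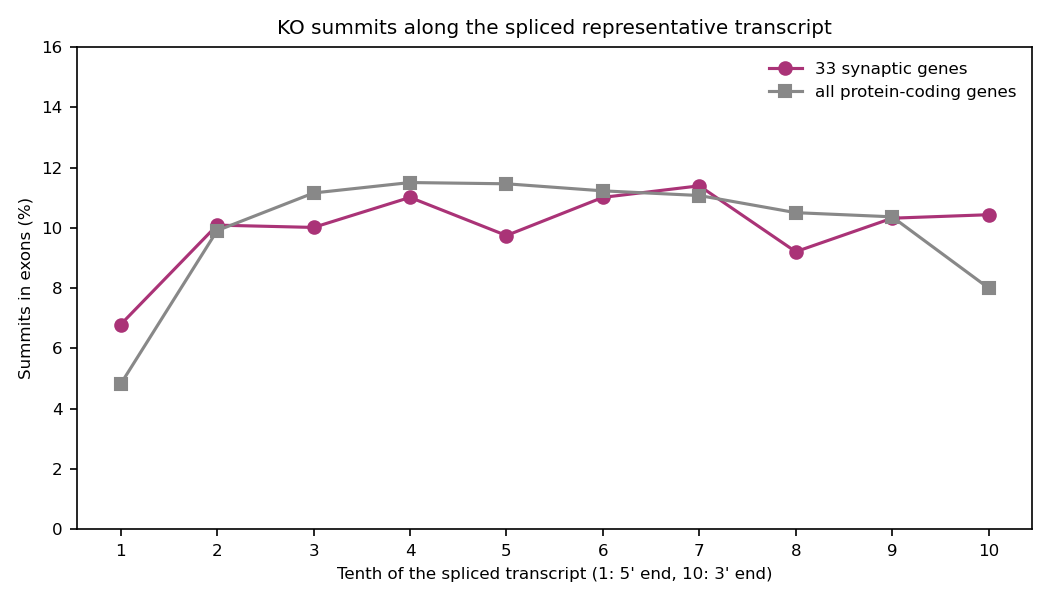
Percent of KO summits in each of 10 equal parts of the spliced representative transcript, from the 5′ end (1) to the 3′ end (10), for the 33 synaptic genes (2607 summits) and for all protein-coding genes (339096 summits). Both profiles are lowest in part 1, at 6.79% and 4.82%, and the synaptic genes are the higher in part 10, at 10.4% against 8%.

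RXR and PPARγ together bind a direct repeat of AGGTCA spaced by 1 base (DR1). These 2 copies of AGGTCA with any base between them were searched on both strands within 100 bp of the median summit of the most recurrent peak site of each gene, for sites seen in at least 3 livers, allowing 2 mismatches. None of the 32 synaptic genes with such a KO site matched, and 178 of the 7273 sites of all protein-coding genes did (2.45%). A single AGGTCA, on either strand and without a mismatch, was found at 6 of the 32 synaptic sites (18.8%) and at 13% of all sites. Syn1, Syt1 and Syngr1 are shown because they had a peak at that site in every KO liver. Each run has 28 bases of GRCm38, on the minus strand for Syn1 and Syt1 and the plus strand for Syngr1, with AGGTCA in capitals.
Syn1, 8 bp from the median summit, chrX:20860984-20861011: acctcttccatAGGTCAtctctctggag
Syt1, 54 bp from the median summit, chr10:108498709-108498736: ttttcacctccAGGTCAcagaaaacagc
Syngr1, 90 bp from the median summit, chr15:80117996-80118023: agtttgctaggAGGTCAcagtgttggga
A match describes the letters of the window and was not tested as a binding site. Summits of single livers can lie away from the median summit, so the window need not hold them.

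Within the KO groups, diet and Pio were compared with tests that the choice of genes did not use. The fold enrichment of genes with a peak in all 10 livers of a comparison was tested with limma, and the number of livers with a peak by Fisher's exact test (two-sided), over all genes in each case. No synaptic gene was called by either test in any of the 4 KO comparisons at an adjusted p below 0.05. For KO Pio against KO Control limma tested 16 synaptic genes and called 0 (0.589% of the 2207 genes tested were called), and 0 had an unadjusted p below 0.05. For KO HFD-Pio against KO HFD it called 0 of 20, for KO HFD against KO Control 0 of 16, and for KO HFD-Pio against KO Pio 0 of 24 (0% of all genes called in each), again with 0 below an unadjusted p of 0.05. The Fisher test called 0 of 33 in each of the 4 comparisons (0% of all genes), with 0 synaptic genes below an unadjusted p of 0.05 and an adjusted p of 1 throughout. The smallest p that 5 livers against 5 can give in this exact test is 0.00794. Over so many genes it could pass adjustment only if a large number of genes reached it, so this test had little power for single genes.

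The values of single genes show how close the KO groups were. Vamp2 had a highest fold enrichment of 16.6 ± 2.40 in KO Control, 17.1 ± 3.25 in KO Pio, 16.9 ± 3.28 in KO HFD and 16.3 ± 1.94 in KO HFD-Pio (SD, n = 5 each). In the limma test of Pio against Control the Vamp2 difference, on the log2 scale and centred on each library's median, was -0.06 (95% interval -0.37 to 0.25), with an adjusted p of 0.989. Among the 16 synaptic genes that could be tested for Pio on the control diet, the largest difference was that of Dnajc5, at 11.5 ± 1.58 in KO Pio and 8.95 ± 1.86 in KO Control (SD, n = 5 each). Its log2 difference was 0.29 ± 0.16 (SE, 95% interval -0.03 to 0.61), with a limma adjusted p of 0.862. Nsf was at 4.55 ± 0.443 in KO HFD-Pio and 6.14 ± 0.903 in KO Pio (SD, n = 5 each), a log2 difference of -0.32 ± 0.16 (SE, 95% interval -0.65 to 0.01), with a limma adjusted p of 0.996. With genes in at least 4 of 5 livers of both groups, 27 synaptic genes entered the test of KO Pio against KO Control, their log2 differences ran from -0.42 to 0.33, and 0 were called. Across the 4 comparisons the 95% intervals of the synaptic genes with a peak in all 10 livers reached from -0.65 to 0.61, so differences of that size could not be told from none.

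**Figure D4:**
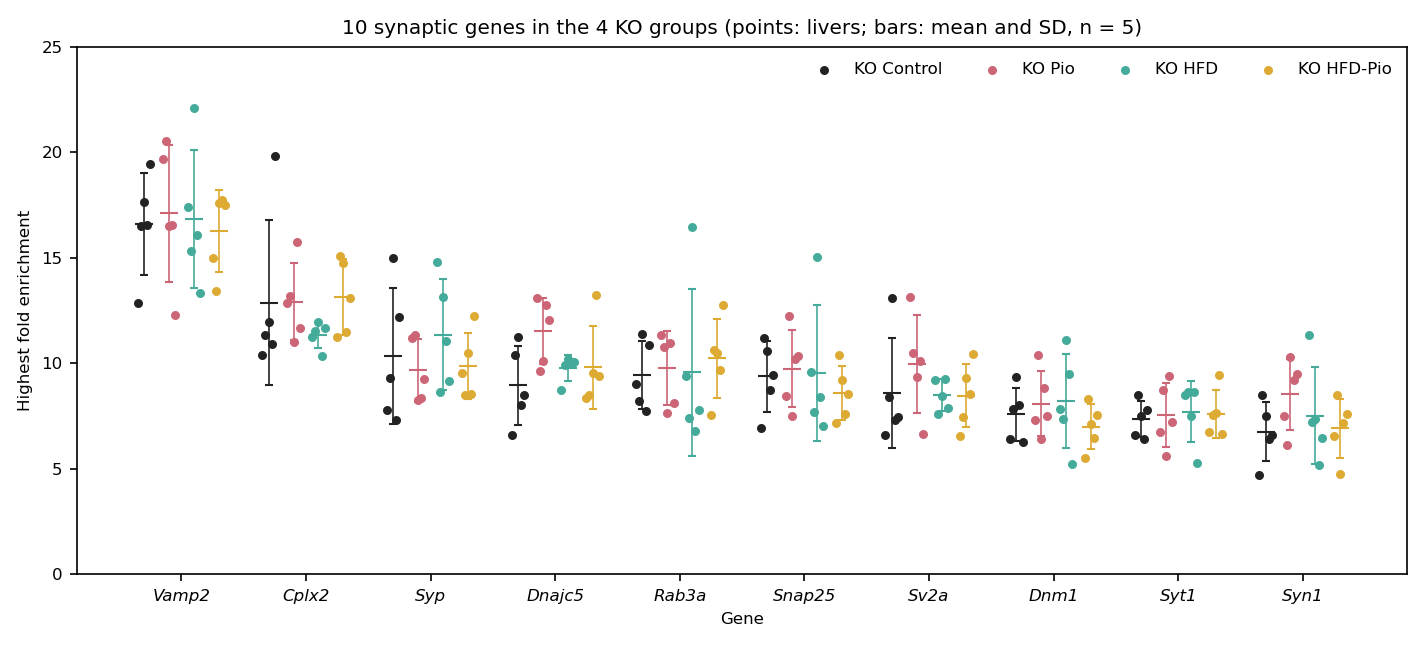
Highest fold enrichment in each KO liver (points) with the mean and SD of each group of 5 (bars), for the 10 synaptic genes of highest mean among the 16 with a peak in all 20 KO livers, on a linear axis from 0. Within each gene the 4 groups overlap, and Vamp2 is the highest gene with group means from 16.3 to 17.1.

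In WT livers the question was whether Pio brought RXR peaks to these genes. On the control diet 0 of the 33 had a peak in at least 3 of 5 WT Pio livers and in none of the 5 WT Control livers, where 7.5% of all protein-coding genes did. On the high fat diet 4 did (7.67% of all genes), Snap25 in 3 of 5 WT HFD-Pio livers, Syt1 in 5, Amph in 4 and Cadps in 4. By exonic peaks alone the count was 0 on either diet, where 6.32% and 3.93% of all genes passed. With a q of at most 0.05 asked of every library the 4 became 2, Snap25 and Rims1. None passed on the high fat diet where the -log10 q, or the fold enrichment, had to reach 5.

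The 7 treated WT livers with a Snap25 peak shared 1 place for their strongest one. The fold enrichment was 4.56 in WT Pio 1, 5.61 in WT Pio 2, 6.46 in WT Pio 3 and 6.57 in WT Pio 5. It was 9.38 in WT HFD-Pio 1, 4.76 in WT HFD-Pio 4 and 4.58 in WT HFD-Pio 5. All 7 lay in an intron of Snap25 and overlapped the exon of Gm14053, an annotated processed pseudogene on the opposite strand (chr2:136744146-136744615). No KO liver had a peak there. The libraries were the 6 with short fragments and WT Pio 1. A processed pseudogene is a copy of a spliced transcript set back into the genome, and whether the reads at this place were unique to it was not tested. In Cadps likewise 3 of its 7 treated WT livers had a peak over Gm17805, a processed pseudogene in a Cadps intron. Without peaks over the exons of other genes Snap25 had a peak in 0 of 10 treated WT livers, and 3 genes passed on the high fat diet, Syt1, Amph and Cadps.

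The other treated WT peaks were scattered. Rims1 and Syt1, which span 520 and 513 kb, had a peak in 8 of 10 treated WT livers, and Pclo and Cadps in 7, all at introns except 2 livers for Cadps. The 5 genes with a peak in 7 or more treated WT livers had a median length of 451 kb. For Syt1 the highest fold enrichment was 2.81 to 3.99 in treated WT, below every KO liver. Its intronic peaks were shared by at most 2 treated WT livers at any 1 place. Besides Vamp2 and Cadps, Nsf had an exonic peak in 1 treated WT liver, so 6 of 71 gene and liver pairs were exonic. In untreated WT the 3 genes with the most livers were Rab3c, Sv2b and Rims1, with 4 of 10 each, and 5 of 31 pairs were exonic, 2 for Rab3c, 2 for Unc13a and 1 for Rims1. WT Control 2, whose list of 12919 peaks was the longest of the untreated WT livers, held 12 of the 31 pairs.

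Between the diets in WT no synaptic gene was called. The limma test of WT HFD-Pio against WT Pio covered 179 genes and that of WT HFD against WT Control 18, none of them synaptic, and it called 0 genes in each (0%), with 1 and 2 genes below an unadjusted p of 0.05. The Fisher test called 0 of 21 synaptic genes with a peak in WT HFD-Pio or WT Pio and 0 of 13 in WT HFD or WT Control (0% of all genes in each). None of them had an unadjusted p below 0.05 in this exact test, against 10 and 31 genes of any kind. The lowest p values of synaptic genes were those of Cadps, with 0 of 5 WT HFD and 3 of 5 WT Control livers (exact p = 0.167, adjusted p = 1), and of Amph, with 4 of 5 WT HFD-Pio and 1 of 5 WT Pio livers (exact p = 0.206, adjusted p = 1).

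Other genes of the synaptic vesicle, in a list of 40 drawn up by function, had an exonic peak at a median of 24.5 genes per KO liver, 2 per treated WT liver and 0 per untreated WT liver. Among all protein-coding genes the mean share with an exonic peak was 25.3% per KO liver, 7.35% per treated WT liver and 0.402% per untreated WT liver. These shares are the background for this list and for those below. In the KO 32 of the 40 had one in at least 1 liver. The calcium sensor relatives Syt4 and Syt11 were exonic in 20 of 20 KO livers, with median fold enrichments of 9.49 and 8.97. The 8 without an exonic KO peak were Syt2, Cplx3, Cplx4, Unc13c, Slc17a8, Slc18a3, Sncg and Cadps2, named after their values were seen.

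Relatives of these genes that most cells use gave a smaller gap between genotypes. Of 23 such genes a median of 12.5 had an exonic peak per KO liver, 6 per treated WT liver and 0 per untreated WT liver. Of the 5 that were exonic in 20 of 20 KO livers, Rab1a, Rab11a, Dnajc7 and Rab7 were exonic in 9, 10, 6 and 5 of 10 treated WT livers and Stx12, named after its values were seen, in 0. Vamp8, a SNARE of endosomes that was singled out after its values were seen, was exonic in 9 of 10 treated WT livers and in 3 of 20 KO livers, the reverse of Vamp2 with 3 of 10 and 20 of 20.

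Markers of cell types were counted in the same way, and their part in the results was not tested. The counts stand beside the same background of 25.3% of all genes per KO liver, 7.35% per treated WT liver and 0.402% per untreated WT liver. Of 17 neuron markers a median of 16 had an exonic peak per KO liver (13 to 16), 1.5 per treated WT liver (1 to 4) and 0 per untreated WT liver. The sum of their highest fold enrichments was 159 to 261 in KO livers and 3.81 to 24.3 in treated WT livers. Tubb3, a tubulin of neurons, was exonic in 20 of 20 KO livers at a median of 44.6, above Vamp2, as were Gap43 (25.04), Stmn2 (23.4) and Uchl1 (23.3), and of the 17 only Nefh had no exonic KO peak. Tubb3 was also exonic in 9 of 10 treated WT livers. Of 11 glia markers a median of 4 had one per KO liver (1 to 5) and 0.5 per treated WT liver (0 to 1). Slc1a3 was exonic in 20 KO livers, Slc1a2 and Aldoc in 19 and Cnp in 15, and the myelin genes Mbp and Mobp, with Aqp4 and S100b, in 0. Of 16 hepatocyte markers a median of 1 had an exonic peak per KO liver (1 to 2) and 1 per treated WT liver (0 to 1). Ttr, transthyretin, made in liver and in the choroid plexus of the brain, was that gene in 20 of 20 KO livers, and 13 of the 16, Alb and Apoa1 among them, had no exonic KO peak. In treated WT the gene was Ass1 in each of 7 livers, singled out after its values were seen, and the other 15 had no exonic peak there. One untreated WT liver had exonic peaks at 8 hepatocyte markers. Peaks of a ChIP library are not a measure of RNA, so these counts do not give the cells present, and the labelled tissue could not be checked by expression.

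**Figure D5:**
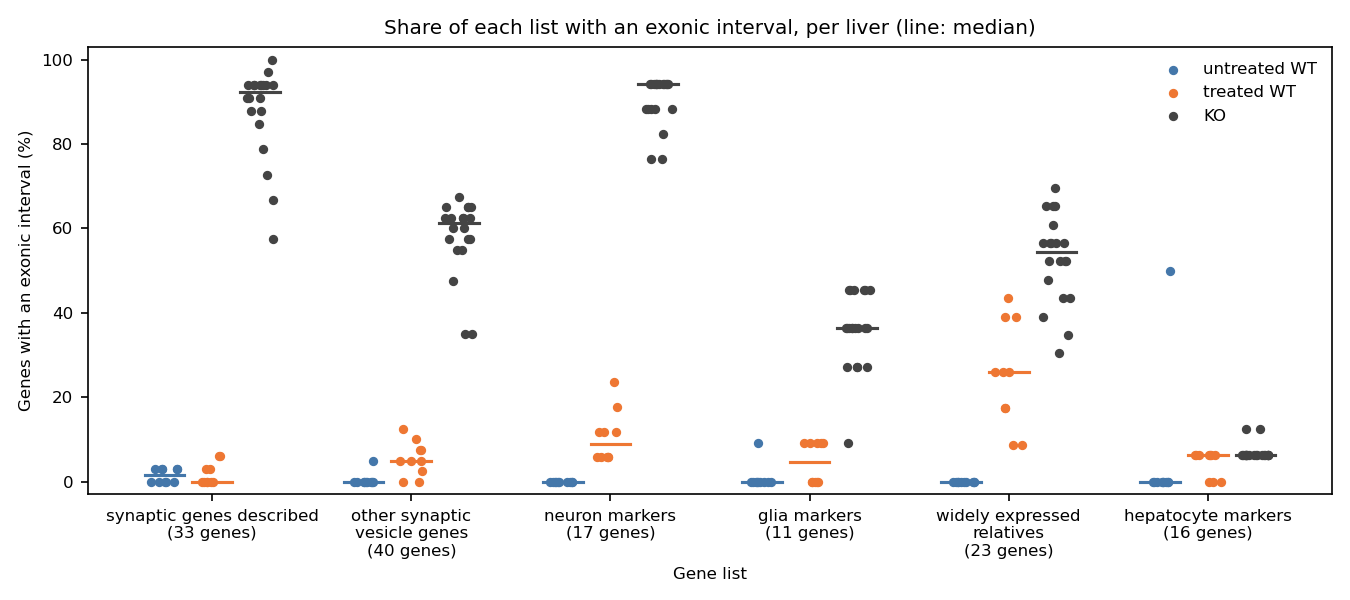
Percent of the genes of each list with an exonic peak in each liver (points) and the median of each class (lines), for the 33 synaptic genes, other synaptic vesicle genes, neuron and glia markers, widely expressed relatives and hepatocyte markers. The KO medians are highest for the synaptic genes (30.5 of 33) and the neuron markers (16 of 17) and lowest for the hepatocyte markers (1 of 16), where treated WT has the same median, and in the widely expressed relatives the medians are 12.5 of 23 in KO and 6 of 23 in treated WT.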

How the data were processed

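Livers of 80 samples (40 RXR ChIP, 40 input) were profiled by ChIP-seq. The authors aligned reads to mm10 with Novoalign and called peaks for each ChIP library over the input of that liver by MACS2 2.1.1.20160309, keeping 1 tag per position. The deposited lists give for each peak the pileup signal (tags at the summit, scaled to the smaller library), the -log10 p-value and q-value, and the fold enrichment, a ratio over the local input background. These lists were used as deposited, and a second deposited format held the same peaks in 40 of 40 libraries. Read counts were not analysed here, so the fold enrichment was tested in place of counts.

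Peaks were matched to GENCODE M21 protein-coding genes by an overlap of at least 1 bp with an exon (exonic) or else an intron. The representative transcript was the APPRIS principal one, then CCDS, then the longest. Per gene and library the highest fold enrichment was taken. It was tested on the log2 scale with limma 3.58.1 (trend, centred on the library median) over genes with a peak in all 10 livers, and the number of livers with Fisher's exact test, with Benjamini-Hochberg adjustment over all genes tested. On simulated data limma recovered 90 to 94.5% of 200 genes changed by 1 log2 unit in the 4 KO comparisons (1938 to 3149 genes), with 5.76 to 6.90% of the calls false against the 5% aimed at; the 2 WT comparisons had too few genes to simulate. A limma p-value reflects the spread between livers within both groups, moderated over all genes tested. That of Fisher's exact test rests on the numbers of livers alone. Precision is limited by pileups of a few tags and, in KO, by 0.628 to 1.06 M tags.

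The 33 genes, the other gene lists and the tests were chosen with earlier results of these data known. Values were written out for the 10 genes with the most KO livers (16 tied at 20, and the tie was broken by the mean fold enrichment, here and below), the 5 with the most treated WT livers, the 3 with the most untreated WT livers, any without a KO peak, any called by a test, and at most 4 of each other list; the remaining synaptic genes are given by counts and medians. Some genes of the other lists are not reported here by name. Alternatives were other thresholds and overlaps, shorter lists, leaving out libraries, the replicate block and other limma settings. Sequences were read from the RefSeq copy of GRCm38.p6. Scripts ran under R 4.3.3 and Python 3.11.15, with scipy 1.17.1, pandas 2.3.3, matplotlib 3.10.9 and numpy 2.4.6.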

Additional observations from a re-analysis of the deposited data

Results flagged for a closer look

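In groups of 5 livers a value was singled out where its gap to the nearest other liver exceeded 0.71 of the range of the group. Of 61 groups tested 9 gave such a value, where chance alone gives about 1 in 20. The genes share libraries, so the groups are not independent of each other. KO HFD 5 had 22 synaptic genes with a peak, where the median of KO HFD was 30, and it also had the fewest peaks of its group, 8311. The remaining 8 were single fold enrichments. High values were 19.8 for Cplx2 in KO Control (group median 11.3), 13.2 for Dnajc5 in KO HFD-Pio (9.41), 16.5 for Rab3a in KO HFD (7.80), 13.1 for Sv2a in KO Control (7.46), 7.42 for Rab3c in KO Pio (5.64) and 5.50 for Cadps in KO Pio (3.77). Low values were 8.71 for Dnajc5 in KO HFD (group median 9.98) and 2.86 for Syt1 in WT HFD-Pio (3.75).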

How the results depend on the processing

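KO livers had a higher mean number of synaptic genes with a peak than either WT class under each threshold and overlap tried. In KO livers the mean number of synaptic genes with a peak went from 29.45 to 19.15 at a -log10 q of at least 5, to 19.25 at a fold enrichment of at least 5, and to 2.40 with every list shortened to the strongest 579 peaks, the length of the shortest list. In that last setting 7.27% of the synaptic genes and 1.65% of all genes had a peak. At a -log10 q or a fold enrichment of at least 5, 58% and 58.3% of the synaptic genes did, and 11.5% of all genes in each. In treated WT the mean of 7.10 went to 0.60 with exonic peaks, 0.50 at a -log10 q of at least 5, 0.50 at a fold enrichment of at least 5, and 0.10 with shortened lists. These are 1.82%, 1.52%, 1.52% and 0.303% of the synaptic genes, against 7.35%, 3.47%, 4.04% and 1.27% of all genes. Untreated WT had 0.60 at a fold enrichment of at least 5 and 0.50 with shortened lists. The order of the WT classes thus turned in these 2 settings for the synaptic genes. Among all genes treated WT stayed above untreated WT, at 4.04% against 0.841% and at 1.27% against 0.97%. Leaving out each liver in turn gave 29.3 to 30 in KO, 6 to 7.78 in treated WT and 2.11 to 3.44 in untreated WT (2.11 without WT Control 2).

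The count of genes with a peak in at least 3 of 5 WT HFD-Pio livers and no WT HFD liver went from 4 to 2 at a q of at most 0.05, and to 0 with exonic peaks, a -log10 q of at least 5, a fold enrichment of at least 5 or shortened lists. It was 3 to 6 when a liver was left out, with 6 without WT HFD 3. On the control diet it went from 0 to 1 (Snap25) at a -log10 q of at least 5, and was 0 to 1 when a liver was left out, with 1 without WT Control 2.

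No synaptic gene was called by limma or Fisher's test under any alternative. Among all genes limma called 13 for KO Pio against KO Control, 0 with exonic peaks, 7 with genes in at least 4 of 5 livers of both groups, 6 without centring and 5 without the trend. Leaving out a liver gave 0 to 15 there, with 0 without KO Pio 1, KO Pio 4, KO Control 1 or KO Control 4. It gave 0 to 1 for KO HFD-Pio against KO HFD (1 without KO HFD-Pio 1) and for KO HFD against KO Control (1 without KO HFD 2), 0 to 2 for WT HFD against WT Control (2 without WT HFD 5), and 0 elsewhere. The cause of these shifts was not tested. Same-numbered livers of the KO groups did not deviate together (correlations over genes from -0.07 to 0.05), so the numbers were not taken as pairs. With a replicate block limma called 16 genes for KO Pio against KO Control and 0 in the other comparisons, and 0 synaptic genes.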
